A study of Mus musculus with 16 samples.

Results

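The genes of the cytosolic ribosome were described across 16 Affymetrix mouse arrays of embryonic stem cells (ESC) and of mesodermal cells made from them. A gene was taken when a probe set named it alone, its symbol was Rpl or Rps followed by a number and at most 1 letter, or was Rplp0, Rplp1, Rplp2 or Rpsa, and where several did, the one with the highest mean value on the 16 arrays stood for the gene. This gave 46 of 18193 genes, 24 of the 60S and 22 of the 40S subunit, from 100 probe sets. Another 28 ribosomal protein symbols, among them Rpl3, Rpl5, Rpl23 and Rplp1, occur only in probe sets that also name other genes, so they have no value of their own here. All cells derive from the EB5 ESC line. EB5 NERT cells carry the intracellular domain of murine Notch1 joined to a receptor domain that responds to 4-hydroxy-tamoxifen (OHT), and EB5 control cells carry the expression vector alone. ESC were kept for 4 h in medium favouring ectodermal (ESCe, NERT only) or mesodermal (ESCm, both lines) differentiation. Mesodermal cells of both lines were differentiated for 4 d. Each of these ESC groups and control mesodermal cells gave 1 array each without and with 1 µM OHT. NERT mesodermal cells gave 8 arrays, 2 for each of the conditions untreated, OHT, cycloheximide (CHX, 50 µg/ml) and OHT plus CHX. Each agent was present for 4 h. The labels do not say whether the arrays of a condition came from separate cultures, so the tests rest on the spread from array to array alone, part or all of which may be technical.

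Each ribosome joins a large 60S and a small 40S subunit, built from ribosomal RNA and a large set of proteins, most of them encoded by single genes. Their mRNAs are among the most abundant of growing cells, and in mammals they typically begin with a C inside a run of C and T, the terminal oligopyrimidine (TOP) start, through which mTOR signalling sets how well they are translated. CHX stops the elongation step of translation on these ribosomes. A few genes are copies of a core gene with a narrower pattern of expression, here Rpl39l, Rpl3l, Rps27l and Rps4l.

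The start of the mRNA is shown for members on which the results below turn, and for TOP starts to set beside them. RefSeq promoter windows (GRCm38.p6, 250 bases before to 50 after the start) were found for 40 of the 46 members. A C followed by at least 4 of C or T from the start occurred in 8 of 40 (20%), against 380 of 17491 windows of protein-coding genes (2.17%). Anywhere from 10 bases before to 15 after the start, a C followed by 4 of C or T lay in 24 of 40 (60%), against 32.1%. A C as first base occurred in 32.5% of members and 13.7% of all, and the run of 5 or more C or T lying over the start in 32.5% and 8.56%. The motif CCGGAAGT, sought on both strands, lay in 10 member windows (25%, against 5.29%), and AAGATGGC in 2 (5%, against 3.22%). These shares are descriptions, and an annotated start need not be the one used in these cells. Each line below gives 15 bases before and 15 from the annotated start (the first listed where a gene has several), 5′ to 3′ on the strand of the gene. The capitals mark the unbroken run of C and T from the start, where it is at least 5 long.
Rpl35, minus strand, chr2:39005117-39005146: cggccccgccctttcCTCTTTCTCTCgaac
Rps10, minus strand, chr17:27635230-27635259: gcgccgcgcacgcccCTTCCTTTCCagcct
Rps18, minus strand, chr17:33955651-33955680: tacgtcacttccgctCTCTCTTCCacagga
Rps6, minus strand, chr4:86857353-86857382: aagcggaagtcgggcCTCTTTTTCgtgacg
Rpl14, plus strand, chr9:120571502-120571531: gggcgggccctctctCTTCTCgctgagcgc
Rpl27a, plus strand, chr7:109519180-109519209: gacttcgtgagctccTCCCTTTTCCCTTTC
Rpl12, plus strand, chr2:32961697-32961726: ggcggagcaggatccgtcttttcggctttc
Rpl39l, plus strand, chr16:10170213-10170242: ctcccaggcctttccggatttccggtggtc
Rps27l, plus strand, chr9:66946071-66946100: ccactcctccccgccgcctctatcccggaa
The first 5 have a TOP start by this rule. In Rpl27a the run is the longest from the start among members, 16 bases, the last of them past the end of the line, but its annotated first base is T. The annotated first base of Rpl12, of Rpl39l and of Rps27l is G, with no such run.

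Most members lay near the top of what the arrays report. The highest value of any probe set was 14989 to 18876 per array, and the array median was 42.0 to 46.9. Of the 46 members, 33 had a mean of 8000 or more, a limit chosen after seeing the data. Among all 45037 probe sets 231 had such a mean. The rule takes the highest probe set of each gene on these same arrays, which in part fixes this position. Of the 100 probe sets with the highest means of all, 31 name a member alone, as do 0.222% of all probe sets. Values of different probe sets are not compared as transcript levels, since each binds with its own strength. The highest of them, Rpl13a, ranged from 13430 to 16120 (median 15462). Rps29 ranged from 12676 to 16071, Rpl4 from 12852 to 15791, Rpsa (the laminin receptor protein of the 40S subunit) from 11880 to 15564, and Rpl35 from 12922 to 14840. In Rpl13a and Rps29 all 6 ESC arrays lay slightly above all mesodermal arrays, and in the other 3 the populations overlapped. In Rpl35 they did so only through CHX arrays (14174 to 14840 in ESC, 12922 to 13987 in mesodermal cells without CHX). How many of all probe sets separate in this way was not counted. Just above the limit lay Rps9 (mean 8124) and Rpl11 (8769), and just below it Rps27l (7089) and Rpl37 (6290). Rpl3l (9.74 to 39.9) and Rps16 (1.00 to 11.03) were near background on all arrays and fell below the filter, a group mean of 50, so 44 members were tested. Rps16 is a core protein of the 40S subunit, so a value near background on this probe set is no measure of its absence.

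**Figure D1:**
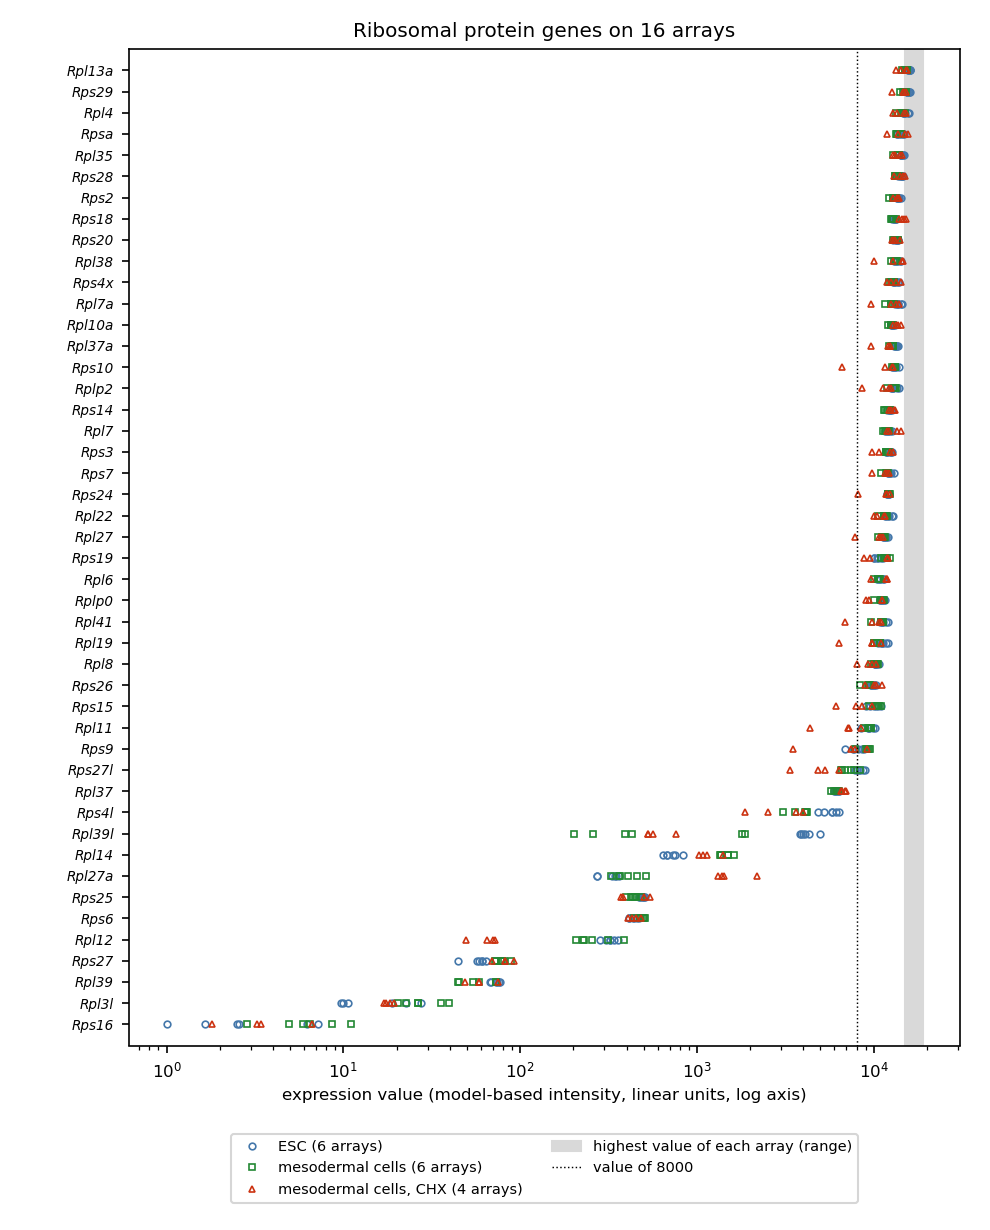
Expression value (linear units on a log axis) of each of the 46 members on each of the 16 arrays, ordered by mean, with ESC as circles, mesodermal cells as squares and CHX-treated mesodermal cells as triangles. The grey band spans the highest value of each array (14989 to 18876) and the dotted line marks 8000, above which the means of 33 members lie.

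Most members at the top of the scale varied little, and Rps9 (3483 to 9495) varied most among them. The median SD of log2(value + 25) over the 16 arrays was 0.10 for the 33 high members (0.04 to 0.35), 0.37 for the 11 tested members below 8000 (0.08 to 1.604) and 0.33 over all probe sets tested. Of the probe sets with a mean of 8000 or more, 97 name no ribosomal protein gene, and their median SD was 0.13. The 5 steadiest members were Rps20 (SD 0.04, 12695 to 14078), Rps14 (0.05), Rps2 (0.06), Rpl35 (0.06) and Rpl10a (0.06). The 5 with the widest spread were Rpl39l (1.604), Rpl27a (0.94), Rpl12 (0.85), Rps4l (0.48) and Rpl14 (0.47), and all of these have means below 8000. None of the 33 high members was called in any of the 11 comparisons, where a call is a limma adjusted p under 0.05. At an unadjusted p under 0.05 there were 3 of them with CHX without OHT, 1 with CHX and OHT and none in the others. Whether a real difference in these transcripts would be seen at such values was not tested.

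By the highest probe set of each gene, 2 members were called between ESC and mesodermal cells. Rpl39l, a copy of the X-linked Rpl39 that sits on chromosome 16, fell, and Rpl14, a core 60S protein, rose, in both cell lines. Lower probe sets of 4 other members, Rps20, Rps3, Rpl13a and Rpl22, were called as well and are given further on. To see which members differ between the populations, mesodermal cells were set against ESCm within each line. In control cells, where both OHT states were averaged, 1 of 44 members was higher (8.33% of all 25847 probe sets tested) and 1 lower (5.00%), against 13.3% of all called in either direction. In uninduced NERT cells again 1 was higher (15.4%) and 1 lower (6.74%), against 22.1% in either direction. The median difference of the 44 members was -0.02 and -0.01 on the log2 scale, beside 0.03 and 0.07 over all probe sets, and 39 and 36 members stayed within 0.25 of 0. The members' 2 calls are fewer than the background share in both lines. Among the 97 other probe sets with a mean of 8000 or more, 6.19% were called in each line.

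Rpl39l stood at 3961 and 4096 in NERT ESCe without and with OHT, at 3806 and 3860 in NERT ESCm, and at 4285 and 4972 in control ESCm. Control mesodermal cells gave 1863 and 1795 without and with OHT. NERT mesodermal cells gave 258 and 428 without OHT and 202 and 391 with it. All 6 ESC arrays thus lay above both control mesodermal arrays, and those above all 4 NERT mesodermal arrays without CHX. The log2 difference was -1.32 (SE 0.30, adjusted p = 0.014), or 2.50-fold, in control cells, and -3.42 (SE 0.36, adjusted p = 0.00012), or 10.7-fold, in uninduced NERT cells. Uninduced NERT mesodermal cells differed from control mesodermal cells by -2.40 (SE 0.36, adjusted p = 0.012), or 5.27-fold. In this comparison of lines Rpl39l was the only member called of 44, lower, where 0.294% of all probe sets were lower, 0.990% higher and 1.28% either. That call was lost without replicate 1 of the NERT arrays (difference -2.06, adjusted p = 0.065), and the control side is 1 array. X-linked Rpl39, at 44.6 to 77.4 on all arrays, gave -0.16 in control and -0.53 in NERT cells and was not called (adjusted p = 0.60 and 0.095), at values close to the filter.

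Marker genes also differed between the mesodermal cells of the lines. Of 8 early mesoderm and primitive streak markers, 7 have a probe set, and their summed value was 322 to 394 on the ESC arrays, where 4 of the 7 stayed under 50. The sum was 1293 and 1348 in control mesodermal cells and 3959 to 4911 in NERT mesodermal cells without CHX. Of the 7, Kdr, which encodes the receptor Flk1, overlapped between the populations (130 to 234 in ESC, 106 to 277 in mesodermal cells without CHX). The 7 ESC markers summed to 12187 to 13524 in ESC, 9927 and 10020 in control and 5367 to 6127 in NERT mesodermal cells. Within that list Pou5f1 (2490 to 2954 in ESC, 1815 to 3449 in mesodermal cells without CHX) and Nanog (1909 to 2715 and 1247 to 2372) overlapped. The order of the populations by these sums matches that of Rpl39l, but their part in it was not tested. The sum of 6 endoderm markers was 664 and 671 in control ESCm and 224 to 261 in NERT ESC. That of 6 fibroblast and feeder cell markers was 469 and 420 in control ESCm and 867 to 1105 in NERT ESC. In mesodermal cells without CHX these 2 sums were 130 to 310 and 348 to 642. In bulk samples, fewer cells of a type and less RNA per cell cannot be told apart, and a difference between 2 lines cannot be told apart from one between the clones.

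Rpl14 was at 645 to 834 (median 706) on the 6 ESC arrays. It was at 1618 and 1491 in control mesodermal cells, and at 1499, 1348, 1371 and 1366 in NERT mesodermal cells. The populations did not overlap. Rpl14 rose by 1.09 (SE 0.17, adjusted p = 0.0017), or 2.13-fold, in control cells and by 1.05 (SE 0.20, adjusted p = 0.0043), or 2.07-fold, in NERT cells. Between the lines its mesodermal level differed by -0.18 (95% interval -0.63 to 0.27). Rps4l, a copy of X-linked Rps4x, was at 4813 to 6395 in ESC and 3062 to 4174 in mesodermal cells, without overlap, yet its differences of -0.29 and -0.58 were not called (adjusted p = 0.61 and 0.31), with 95% intervals of -0.96 to 0.38 and -1.40 to 0.25. Its 2 arrays with CHX alone, 1861 and 3981, differed most, and their spread enters the error of the fit. Rps6, the 40S protein that S6 kinases phosphorylate, was at 410 to 508 on all arrays and differed by 0.18 and 0.20 (adjusted p = 0.57 and 0.56).

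**Figure D2:**
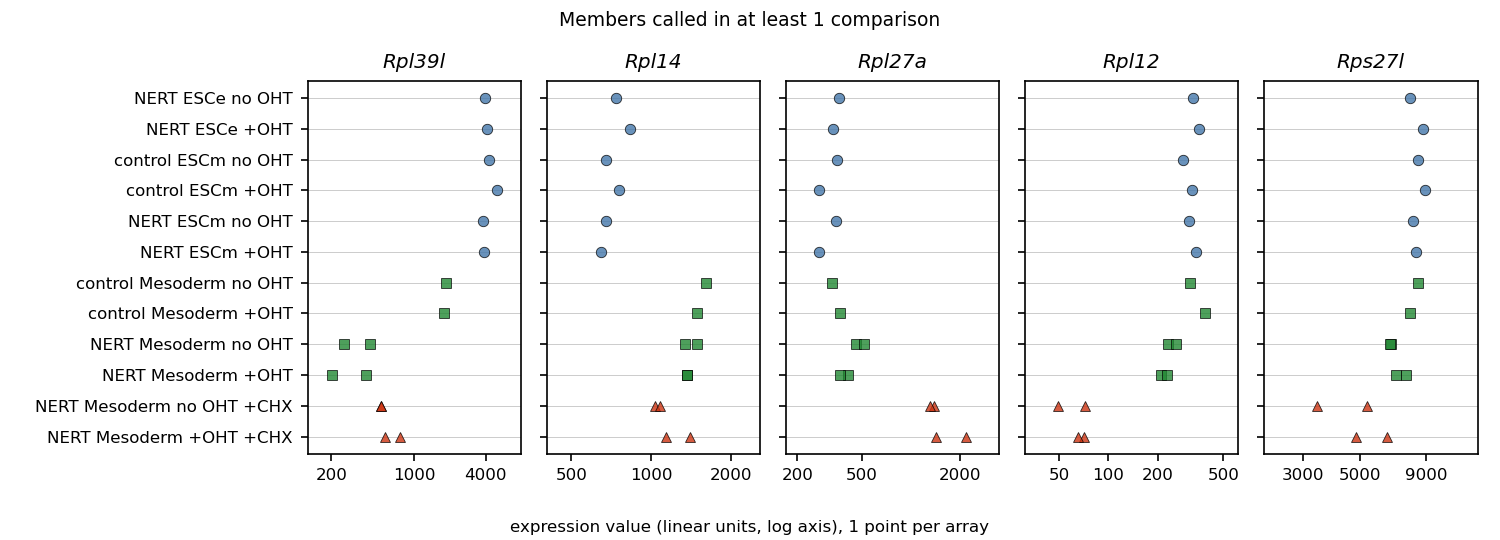
Expression value (linear units on a log axis) of the 5 members called in at least 1 comparison, with 1 point per array and 1 line per group (ESC circles, mesodermal cells squares, CHX-treated mesodermal cells triangles). Rpl39l falls from 3806 to 4972 in ESC to 202 to 428 in NERT mesodermal cells without CHX, Rpl14 is higher in mesodermal cells, and Rpl27a and Rpl12 separate the CHX arrays from all others.

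CHX, given to block protein synthesis while Notch1 was induced, gave few calls on the highest probe set of each gene. Rpl27a rose and Rpl12, which forms the base of the 60S stalk, fell, both without and with OHT. Of the 33 high members 23 stayed within 0.25 of 0 without OHT and 30 with it, and none was called. Lower probe sets of 7 members that were not called here, such as Rps24 and Rpl41, fell without OHT and are given further on. Without OHT, 1 of 44 members was higher (21.1% of all 23971 probe sets tested) and 2 were lower (11.7%). With OHT, 2 of 44 were higher (26.5%) and 1 lower (14.0%). In all, 6.82% of members were called each time, against 32.8% and 40.5% of all probe sets. The 97 other probe sets with a mean of 8000 or more were called in 8.25% and 9.28%. The median of the 44 members was -0.11 without and 0.01 with OHT, beside 0.06 and 0.10 over all probe sets. With arrays centred on their median, the median over all probe sets became -0.06 and -0.05, the calls over all changed from 5059 higher and 2812 lower to 4169 and 4302 without OHT and from 6342 and 3360 to 5068 and 5097 with it, and 1 member was higher and 7 lower without OHT. Across the 44 members, which are not independent replicates, the differences without and with OHT, which share no array, correlated with Pearson's r = 0.93 and Spearman's rho = 0.81.

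Rpl27a was at 272 to 513 on the 12 arrays without CHX. The 2 arrays with CHX alone gave 1383 and 1314, and those with CHX and OHT gave 2178 and 1419. Every CHX array lay above every other array. The log2 difference was 1.43 (SE 0.21, adjusted p = 0.00067), or 2.69-fold, without OHT and 2.11 (SE 0.21, adjusted p = 5.1e-05), or 4.32-fold, with OHT. The difference between these, 0.68 (SE 0.29), did not pass the test over all probe sets in limma (adjusted p = 1.0). The second probe set that names Rpl27a alone had a mean of 8.96 and was not tested.

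Rpl12 moved the other way. It was at 208 to 385 on the 12 arrays without CHX, at 49.7 and 72.3 with CHX alone and at 70.7 and 65.4 with CHX and OHT. All 4 CHX arrays lay below all others. Rpl12 fell by 1.65 on the log2 scale (SE 0.18, adjusted p = 0.00013) without OHT and by 1.38 (SE 0.18, adjusted p = 0.00022) with OHT. Because 25 was added to each value before taking logs, a change at values this low is understated. Rpl12, like Rpl39l and Rpl14, has 1 probe set here, so the calls on these 3 genes rest on 1 probe set each. The tested probe sets of the core genes Rpl27a, Rpl12 and Rpl14 have low means, 666, 238 and 1104. Low probe sets of several other members differ from the highest one of the same gene, as given further on. Whether these 3 stand for most of the transcript of their gene was not tested.

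Both paralog copies that were called with CHX were called in 1 setting each. Rpl39l rose from 202 and 391 with OHT alone to 765 and 565 with CHX and OHT, a log2 difference of 1.15 (SE 0.30, adjusted p = 0.012). Without OHT it went from 258 and 428 to 525 and 528, a difference of 0.62 (adjusted p = 0.14), and the difference between the CHX effects was 0.53 (95% interval -0.41 to 1.47). The call was lost without replicate 1 of the OHT arrays (adjusted p = 0.11) or replicate 1 of the CHX and OHT arrays (adjusted p = 0.074). Rps27l, a copy of Rps27 known as a target of p53, was at 6584 and 6488 without and 3374 and 5318 with CHX, a fall of 0.62 (SE 0.20, adjusted p = 0.036). With OHT it was at 6845 and 7487 without and 6362 and 4810 with CHX, -0.37 (adjusted p = 0.17). Leaving out replicate 1 of the CHX arrays gave -0.30 and an adjusted p of 0.26, so the Rps27l call rests on that array. The call was also lost without either untreated array (adjusted p = 0.12 and 0.14), without either OHT array (0.056 and 0.057), with no filter (0.070) and without the variance trend (0.057). Its other probe sets fell by 0.70 and 0.65.

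**Figure D3:**
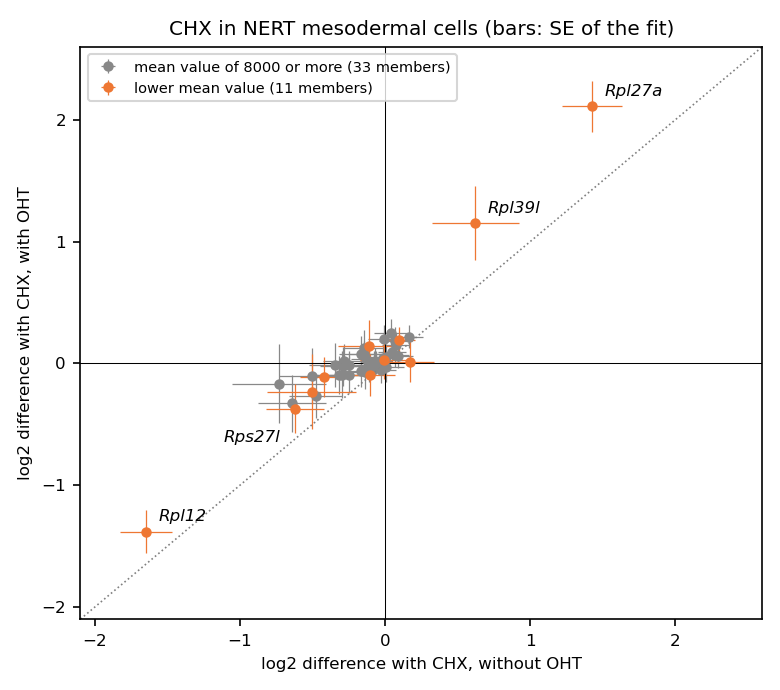
Log2 difference with CHX in NERT mesodermal cells without OHT (x axis) against that with OHT (y axis) for the 44 tested members, with bars for the SE of the fit and a dotted line where both are equal. Rpl27a and Rpl39l lie at the upper right and Rpl12 at the lower left, while the 33 members with a mean of 8000 or more (grey) lie within -0.73 to 0.16 and -0.33 to 0.25.

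Other core proteins, most of them read near the top of the scale, were not called. Rplp0, the scaffold of the ribosomal stalk and a frequent reference gene, was at 10933 and 11156 without and 8993 and 11173 with CHX, a difference of -0.14 (95% interval -0.44 to 0.16), and of -0.07 (-0.37 to 0.22) with OHT. Rplp2, its partner in the stalk, gave -0.32 (-0.66 to 0.02) and -0.09 (-0.44 to 0.25). Rpsa gave 0.00 (-0.27 to 0.28) and -0.03 (-0.31 to 0.25). These intervals cover the spread between arrays, not a flattening of high values. The steadiest member, Rps20, gave -0.06 (-0.27 to 0.15) and 0.01 (-0.20 to 0.22), read from a probe set with a mean of 13345. A probe set of Rps20 with a mean of 226 gave 0.41 without OHT (adjusted p = 0.087) and rose by 0.56 with it (adjusted p = 0.022). Rps18, at 12813 and 13321 without and 14801 and 14493 with CHX, gave 0.17 and 0.22 (adjusted p = 0.20 and 0.085). Other probe sets of Rps18 went the other way, with -0.38 and -0.45 without and -0.21 and -0.17 with OHT at means of 10764 and 9754, not called, and -0.14 and -0.65 at a mean of 51.9, called with OHT (adjusted p = 0.013). Rps6 gave -0.10 in both settings (95% intervals -0.48 to 0.28 and -0.47 to 0.28). The difference between the CHX effects with and without OHT was called for no member and for 0.0250% of all probe sets, with a median of 0.19 over the members and 0.04 over all, and 1 member (Rpl27a) and 1080 probe sets had an unadjusted p under 0.05. The median over the members ranged from -0.004 to 0.298 with single arrays left out.

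One CHX array stood apart, with lower values for most high members. On replicate 1 with CHX alone the median member lay 0.21 below the mean of the arrays without CHX, with 33 of 44 lower. On replicate 2 the median was 0.03 above, with 17 of 44 lower, and on the CHX and OHT arrays it was -0.03 and 0.06. Against replicate 2, replicate 1 was lower in 39 of 44 members (median -0.21), while the median over all probe sets was 0.01 and that over the 97 other probe sets of 8000 or more was -0.12. Replicate 1 was also lower in 41 members with OHT alone (median -0.098, over all probe sets -0.105). With CHX and OHT it was lower in 30 members (median -0.089, over the 97 other probe sets -0.175), and without either agent in 29 (median -0.015). Rps9 was at 3483 and 9164 on the 2 arrays with CHX alone, against 9314 and 9495 without CHX. Rps10 was at 6652 and 12915, against 13201 and 13073. Rpl11, which can bind Mdm2, was at 4347 and 8509, against 9415 and 9615. With OHT, Rpl11 was at 7166 and 7231 with CHX and at 8759 and 9303 without. Its 4 CHX arrays (4347 to 8509) thus lay below all mesodermal arrays without CHX (8759 to 9707). The differences of these 3 without OHT, -0.73, -0.50 and -0.64, were not called (adjusted p = 0.11, 0.12 and 0.056). With OHT they were -0.17, -0.10 and -0.33, not called either (adjusted p = 0.71, 0.75 and 0.29). The spread between the 2 arrays with CHX alone enters the error of both comparisons. With replicate 2 left out, 18 members were called, 17 of them lower, where 24.5% of all probe sets were called. With replicate 1 left out 2 were called, where 16.2% of all were, and the median became 0.03. What set this array apart was not tested.

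**Figure D4:**
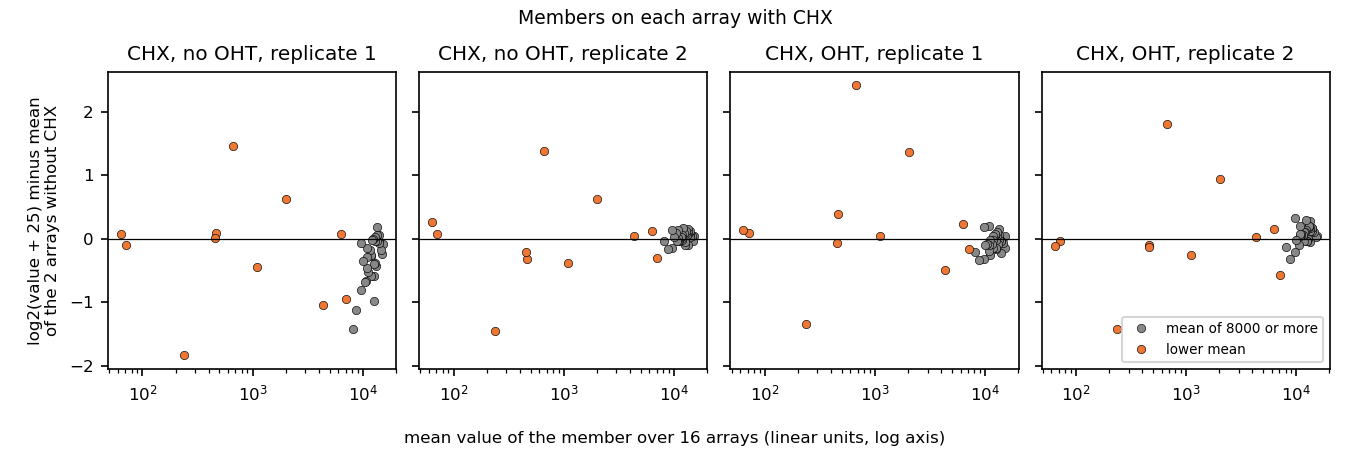
For each of the 4 CHX arrays, log2(value + 25) of the 44 tested members minus the mean of the 2 arrays without CHX, against the mean value of the member over 16 arrays (linear units on a log axis). On replicate 1 without OHT the members with means of 8000 or more (grey) reach down to -1.43 (Rps9), while on the other 3 arrays the lowest is -0.33 (Rpl11).

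Many of these genes have several probe sets, and calls were made on those with lower values alone. Of the 100 probe sets that name a member alone, 90 were tested with CHX, 59 of them with a mean of 8000 or more and 31 with a mean of 50 to 8000. None of the 59 was called in any comparison. Of the 31, 1 was higher and 12 lower with CHX without OHT, and 3 were higher and 9 lower with OHT. Over all probe sets 21.1% were higher and 11.7% lower without OHT, and 26.5% and 14.0% with it. Between ESCm and mesodermal cells, 5 of the 31 were higher and 1 lower in control cells, and 6 higher and 2 lower in NERT cells, where 8.33% and 5.00%, and 15.4% and 6.74%, of all were. Several of these probe sets belong to members whose highest probe set was not called. The probe sets of a gene share their transcripts but can read different ends or forms of them, and which of them is right was not tested.

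For Rps24, a probe set with a mean of 288 was at 237 and 196 without CHX, 90.0 and 74.3 with CHX, 289 and 214 with OHT, and 53.9 and 67.7 with both. Its difference was -1.17 (SE 0.20, adjusted p = 0.0015) without and -1.68 (adjusted p = 0.00012) with OHT, while the highest probe set of Rps24 gave -0.29 and -0.02. It was also lower in uninduced NERT mesodermal cells than in ESCm (-0.91, adjusted p = 0.022). Both low probe sets of Rpl41, which encodes the shortest of these proteins, gave -1.20 and -1.44 without OHT and -1.44 and -1.30 with it. Low probe sets of Rpl37a (-1.12 and -0.95) and Rps9 (-1.06 and -1.05) fell as well. Probe sets of Rpl27 (-0.48 and -0.45) and Rpl22 (-0.66 without OHT), with means of 5015 and 6691, were also lower. On these probe sets both arrays with CHX alone lay below both arrays without, replicate 2 included.

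In mesodermal cells, low probe sets of 4 genes were higher than in ESCm. A probe set of Rps20 with a mean of 226 was at 40.9 to 82.9 on the 6 ESC arrays, at 169 and 135 in control mesodermal cells and at 274 to 360 in NERT mesodermal cells without CHX. Its difference was 1.18 (SE 0.16, adjusted p = 0.00096) in control and 2.41 (SE 0.20, adjusted p = 3.3e-05) in NERT cells, and another low probe set of Rps20 gave 1.04 and 1.56. The highest probe set of Rps20 gave -0.08 and 0.02. For Rps3, a probe set at 482 to 639 in ESC was at 1154 and 1165 in control and 1285 to 1522 in NERT mesodermal cells, a difference of 0.87 and 1.57. A probe set of Rpl13a was at 3266 to 3712 in ESC and 6431 to 6664 in all 6 mesodermal arrays without CHX, a difference of 0.96 and 0.97 (adjusted p = 0.0052 and 0.0092), where the highest probe set of that gene, near the top of the scale, gave -0.04 in both lines. A probe set of Rpl22 rose by 1.33 (adjusted p = 0.0037) in NERT cells. The Rpl13a probe set fell with CHX, by 0.59 without and 0.72 with OHT.

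**Figure D5:**
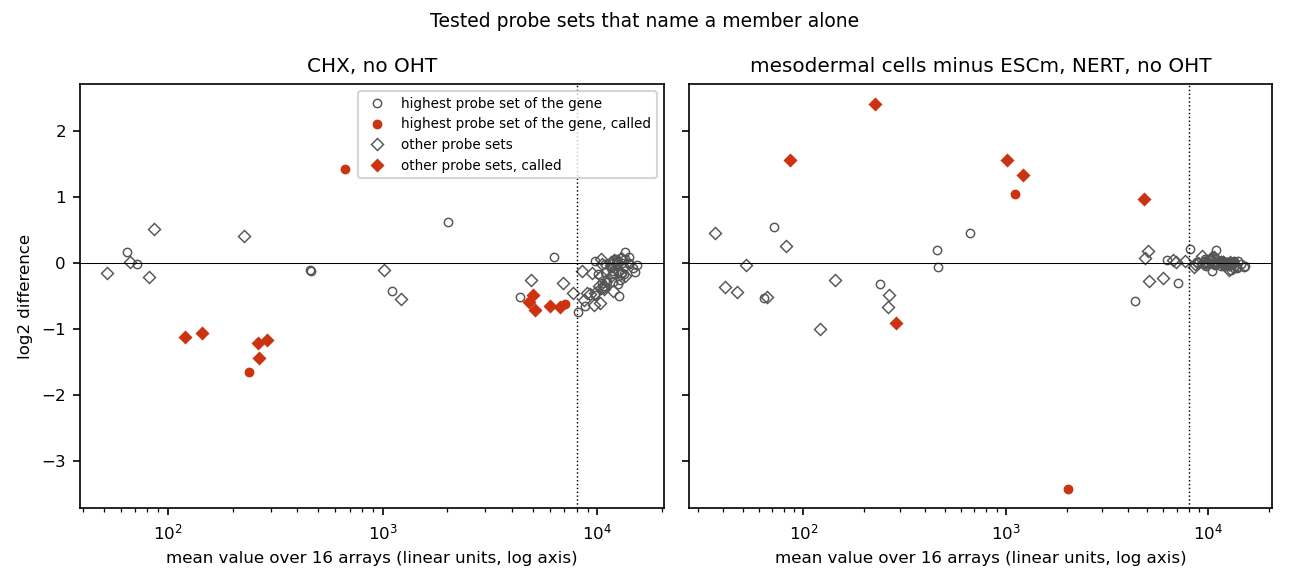
Log2 difference with CHX without OHT (left) and between mesodermal cells and ESCm in uninduced NERT cells (right) against the mean value over 16 arrays (linear units on a log axis) for the tested probe sets that name a member alone, circles for the highest probe set of each gene and diamonds for the others. Filled red symbols are called, and all lie left of the dotted line at 8000.

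Probe sets that name a ribosomal protein gene beside other genes, often processed copies, were counted as a class and not by gene. Of 110, 103 were tested with CHX. Without OHT 1 was higher and 5 lower, with OHT 5 were higher and 5 lower, and the medians were -0.09 and 0.05. In all, 5.83% and 9.71% of them were called, against 32.8% and 40.5% of all probe sets. Between ESCm and mesodermal cells 5 and 6 of 105 were called (4.76% in control and 5.71% in NERT cells), each of them higher, with medians of 0.01 in both lines. Of all probe sets 8.33% and 15.4% were higher there, and 13.3% and 22.1% were called in either direction.

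Notch1 induction by OHT called no member. Without CHX the 44 members had a median of -0.04, the same as all probe sets, and the largest differences were 0.37 for Rpl39 (95% interval -0.00 to 0.74), -0.31 for Rpl27a and -0.22 for Rpl39l. Of all probe sets 0.893% were called. With CHX the median was 0.13, with 38 of 44 members above 0, beside 0.00 over all probe sets, and the largest were 0.43 for Rps9, 0.38 for Rps27l and 0.38 for Rps10, where 0.567% of all were higher, 0.0501% lower and 0.617% either. The arrays without OHT here include the CHX array that stood apart. With single arrays left out, the median of the members with CHX ranged from -0.034 to 0.272. In limma no member had an unadjusted p under 0.05 in either setting, against 1924 and 1413 of all probe sets. Leaving out replicate 2 of the CHX arrays gave 5 members called higher with OHT, where 0.381% of all probe sets were called, and the CHX array that stood apart is then the only one without OHT. In NERT ESC, where both media were averaged, no member was called against 0.294% of all probe sets, and the members ranged from -0.22 (Rpl27a) to 0.16 (Rps27). In control cells the range was -0.15 (Rpl39) to 0.23 (Rpl12), and between ESCe and ESCm it was -0.05 (Rps15) to 0.24 (Rpl14). In these last 2 comparisons limma called 0% of all probe sets, with 220 and 451 at an unadjusted p under 0.05 and none among the members.

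Genes whose products build the ribosome were described beside its proteins. Of 46 tested genes of ribosome biogenesis, 11 were higher and 2 lower with CHX without OHT (median 0.17), and 17 were higher and 4 lower with OHT (median 0.27). Over all probe sets 21.1% were higher and 11.7% lower without OHT, and 26.5% and 14% with it. Those with the greatest rise with OHT were Wdr43, a processome subunit (0.88 without and 1.15 with OHT), Gnl3, or nucleostemin (0.79 and 1.14), and Tsr1, a 40S maturation factor (1.04 and 1.08). Rrp9, a component of the U3 snoRNP, fell by 1.26 and 1.27. In uninduced NERT mesodermal cells 11 of the 46 were lower than in ESCm and none higher (median -0.45, beside 0.07 over all probe sets), and 6.74% of all probe sets were lower. The greatest differences were those of Riok2 (-1.24), Bop1 (-1.17) and Rrp1b (-1.12). In control cells 2 were lower, Riok2 (-1.02) and Rrp1b (-0.72), where 5% of all probe sets were lower.

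Genes that host small nucleolar RNAs in their introns, which guide the modification of ribosomal RNA, were mostly higher with CHX. Of 7, 5 were higher and 1 lower without OHT and 5 were higher with it (medians 0.84 and 1.41). Among all probe sets 21.1% were higher and 11.7% lower without OHT, and 26.5% were higher with it. Snhg5 was at 1194 and 1020 without and 3618 and 3583 with CHX, a difference of 1.68 (adjusted p = 7.2e-05). Snhg12 rose by 1.67 and 2.26, and Snhg1 by 1.51 and 2.06. Of the 3 measured relatives that the naming rule leaves out, Rpl7l1 rose with CHX (0.68 and 0.56), and Fau did not pass the test. In mesodermal cells Rpl22l1, a copy of Rpl22, rose by 0.98 in control and 1.14 in NERT cells, and Rpl7l1 fell by 0.64 and 0.89.

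Translation factors and regulators showed single changes. Of 17 elongation factors and other TOP mRNAs, 2 were higher and 1 lower with CHX in each setting, Hnrnpa1 (0.89 and 0.79) and Eif4a2 (0.85 and 1.03) being higher in both. Eef1a1, the main elongation factor, stayed between 13164 and 16047 on all arrays. Of 23 initiation factors 2 were higher and 2 lower without OHT, and 2 higher and 4 lower with it, with Eif6, which keeps free 60S subunits apart, lower in both (-0.86 and -0.80). Of 11 genes of the mTOR and S6 kinase pathway, 2 and 4 were higher and 1 lower each time, with Mtor at 0.75 and 1.00 and Tsc2, its inhibitor, at -0.87 and -1.22. Of 8 p53 targets 2 were higher without OHT, and 1 higher and 2 lower with it, with Mdm2 at 1.11 and 0.66. Mitochondrial ribosomal proteins, which build a separate ribosome, gave 8 higher and 9 lower of 76 without OHT and 16 higher and 7 lower with it (medians -0.06 and 0.10). All these shares stand beside the 32.8% and 40.5% of all probe sets that CHX called, and a list is described here, not tested.

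CHX also moved the markers of the cells. The streak marker sum of the 4 CHX arrays was 971 to 1290, against 3959 to 4911 without CHX, and 6 of 7 markers were lower in each setting. The exception, Kdr, was at 236 to 462 with CHX and at 106 to 277 in mesodermal cells without it. The ESC marker sum was 6146 to 8019 against 5367 to 6127, although Pou5f1 was at 571 to 1398 with CHX and at 1815 or more without. The 6 fibroblast and feeder cell markers summed to 977 to 1388 with CHX and 348 to 642 in mesodermal cells without it, and 3 of the 6 stayed under 50 on every CHX array. The 6 endoderm markers summed to 377 to 583 and 130 to 310, with 3 of 6 under 50 in each. These values move with CHX beside Rpl27a, Rpl12 and Rpl39l, and their part in those results was not tested.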

How the data were processed

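Biotin-labelled RNA was hybridised to Affymetrix mouse arrays, and the authors computed model-based expression values with dChip, with invariant-set normalization against one array, control mesodermal cells given OHT. The deposited values are intensity values on a linear scale for 45037 probe sets, of which 34945 name 1 gene symbol, 932 several and 9160 none. Detection calls were not used. Log2(value + 25) was tested over probe sets with a group mean of 50 or more, with limma 3.58.1 (lmFit and eBayes with trend) run in R 4.3.3, and p-values were adjusted over every probe set tested (Benjamini-Hochberg). The 8 NERT mesodermal arrays gave the CHX and OHT comparisons, and 16 arrays in 12 groups the others, where groups of 1 array take their spread from the replicated groups (4 residual degrees of freedom each). Tests are two-sided. The number of arrays limits the precision. Groups came from the labels. Members and lists were chosen with earlier results of these data known. Named members are those called, the steadiest, most variable and highest 5, the paralog copies and a few fixed genes. Of other lists up to 3 called genes per direction were named. Alternatives were another pseudocount, filter, normalization, probe set, variance model or fit, a replicate block and each array left out. Sequences come from RefSeq (GRCm38.p6). The fits were tested on simulated data. Python 3.11.15 with numpy 2.4.6, pandas 2.3.3 and matplotlib 3.10.9 made tables and figures. Some genes are not analysed here.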

Additional observations from a re-analysis of the deposited data

How the results depend on the processing

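Counts of members called in the 11 comparisons kept within 1.5 times in 186 recomputations and moved in 17. A count of 0 that stayed at 0 is among those kept. The main count was 0 in the OHT comparisons, the difference of CHX effects and ESCe against ESCm. With CHX without OHT the count of 3 became 6 with quantile normalization, 8 with arrays centred on the median, 7 with the replicate block (35.7%, 35.3% and 38.3% of all probe sets, against 32.8%), 7 with probe sets without _x_at or _s_at and 6 with the mean over probe sets, and it ranged from 2 to 18 with arrays left out in turn. With CHX and OHT it was 7 with probe sets without _x_at or _s_at, 0 with the second probe set and 2 to 6 with arrays left out, and for OHT with CHX 0 to 5. Between mesodermal cells and ESCm the count of 2 became 1 with the second probe set in both lines, and in NERT cells 4 with probe sets without _x_at or _s_at and 5 with the mean over probe sets. Between the lines the count of 1 became 0 with the second probe set and was 0 to 1 with arrays left out. For single members 4440 values kept their state, called or not, 10 lost a call, 30 gained one and 2 reversed. A member called in neither fit counts as kept, and most of the 4440 values are of this kind. The 2 that reversed were those of Rps20 in control mesodermal cells. They went from -0.08 to 1.19 with the probe set without _x_at or _s_at and 0.52 with the mean over probe sets. The second probe set exists for 20 tested members, so that count covers fewer genes. Counts with other probe sets come from the main fit. It called 32.8% of all probe sets with CHX without OHT, 40.5% with CHX and OHT, and 22.1% between the populations in NERT cells. With the mean over probe sets, 35.6% of all genes tested were called with CHX without OHT and 26.3% between the populations in NERT cells. The causes of the other changes were not tested. The replicate numbers were not used as pairs, since not all of the 6 correlations of same-numbered deviations (0.01 to 0.51) were above 0.1, and whether they mark experiments is not given in the sources used here. Whether values near the top of the scale hide differences of the 33 high members was not tested.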
